A study of Rattus norvegicus with 24 samples.

Results

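The comparison asks how hepatic gene expression differed between adult female rats by what their grandfather ate, when the females themselves ate only chow. Its members are 13 of the 24 arrays of the study, chosen by the group name in the sample titles: 6 females from grandfathers on a high-fat diet (the HFD line) and 7 from grandfathers on chow (the chow line). All animals were Sprague-Dawley females of the F2 generation, the founders were F0 males fed chow or the high-fat diet (HFD), and the chow-fed females ate control chow through the 12 weeks in which the other 11 animals ate an HFD with 42 to 45% of energy from fat. The other 11 animals, 6 of the chow line and 5 of the HFD line, entered the fit as groups of their own and served as the second own diet at the end. The labels do not say what the F1 parents ate, which parent linked a female to her grandfather, how old the females were or which of them were littermates. Females that share a litter or a grandfather would make the p-values below too small and the intervals too narrow.

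In designs of this kind an effect of the founder male's diet could reach the next generation through his sperm. It could reach the F2 generation through the germ cells and physiology of the F1 parent. No such route was tested here. DNA methylation, histone marks and small RNAs of sperm are the carriers most studied in rodents. The liver is a common readout, because it sets the body's lipid, glucose and bile acid balance and its transcripts respond to fasting, feeding, hormones and time of day within hours.

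Each array gave 1 intensity per probe set for 20917 probe sets. Values below are log2(intensity + 16), called the log2 signal; a difference is the HFD line minus the chow line on that scale, and the ± after it is its standard error. The number of arrays limits the precision. Median intensities of the 13 arrays lay between 102 and 128. The arrays' median log2 signal averaged 7.00 ± 0.05 (SD, n = 6) in the HFD line and 7.04 ± 0.12 (SD, n = 7) in the chow line, a difference of -0.04 (exact two-sided permutation test over 1716 regroupings, p = 0.463). Pairs of arrays correlated at 0.975 to 0.991. The first principal component over these arrays (22.3% of the variance) followed array brightness. On the second (18%) arrays 21 and 25, both of the chow line, were highest at 22.5 and 28.3, followed by array 26 at 10.5. From array 25 to array 30 it fell with each array number, to -7.2. The HFD line, arrays 37 to 42, lay between -13.5 and -0.55. The labels do not say what the numbers stand for, and line cannot be told apart from anything that ran with them. No array of the HFD line lay near arrays 21 and 25. List medians and named genes whose value turned sign or moved by over 1.5 times without them are therefore given both ways. Leaving them out does not remove a fall with array number. Titles and tissue labels name the liver, although the protocol on husbandry mentions dissecting gonadal fat. The albumin gene Alb had a log2 signal of 13.26 to 13.65 in all 13 arrays, and the adipocyte genes Adipoq (adiponectin) and Lep (leptin) had 5.50 to 6.49, close to 5.72, the mean under which probe sets were left out of the tests. The 8 tested genes of the adipocyte list summed to an intensity of 1440 to 2322, so some other adipocyte genes were brighter. On the labels and the level of Alb the samples were taken as liver.

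No probe set differed between the lines on chow at an adjusted p under 0.05 (limma with Benjamini-Hochberg adjustment, 0 of 15687 tested, 0%). The smallest adjusted p was 0.354, for Ube2n, whose unadjusted p was 2.26e-05 against the 3.19e-06 that a lone first call would have needed. At an unadjusted p under 0.05 there were 608 probe sets higher in the HFD line (3.88%) and 827 lower (5.27%), 1435 together (9.15%). The values of the 2 groups did not overlap for 51 probe sets (0.325%), 13 higher and 38 lower (0.0829% and 0.242%). The median difference over all probe sets was -0.01. Which direction prevailed among the small p-values depended on how the arrays were scaled: 42.4% of the probe sets with an unadjusted p under 0.05 were higher as deposited, 57.1% after quantile normalization (1043 higher, 784 lower) and 72.5% after centring each array on its median (1503 higher, 569 lower). Without arrays 21 and 25 the counts were 235 higher and 653 lower. The direction also varied with the filter and with single arrays. With the lower 50% of probe sets left out, 62.3% were higher (557 higher, 337 lower). The share was 60.9% without array 28, 55.8% without array 40 and 27.2% without array 37.

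The absence of calls came with intervals that bounded most genes, if the females are taken as independent and the deposited scaling as given. The median standard error was 0.11 (quartiles 0.0927 and 0.128), and the 95% confidence interval reached 0.22 to either side of the difference in the median probe set. The interval lay wholly inside a 1.5-fold change in either direction for 14532 probe sets (92.6%) and inside a 2-fold change for 15479 (98.7%). The measured difference exceeded 2-fold for 22 probe sets, 5 higher and 17 lower, and exceeded 1.5-fold for 118.

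**Figure D1:**
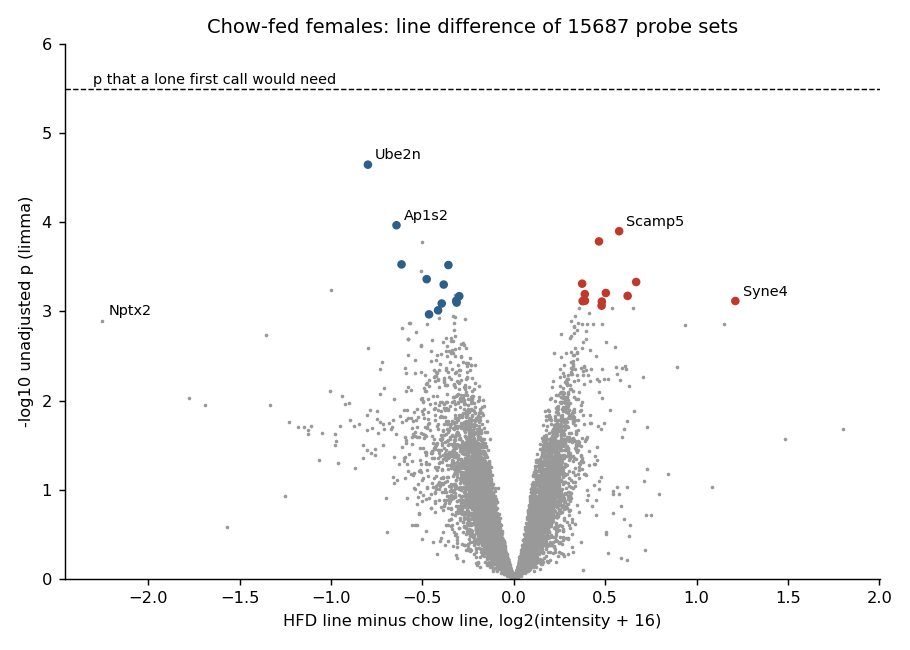
Difference between the lines in chow-fed females (x axis, HFD line minus chow line, log2 signal) against minus log10 of the unadjusted limma p (y axis) for 15687 probe sets, 1 grey point each; the 12 named genes with the smallest p in each direction are red where higher and blue where lower in the HFD line, and grey points among them are probe sets that the naming rule leaves out. No point reaches the dashed line, the p of 3.19e-06 that a lone first call would need; Ube2n comes closest, and Nptx2 has the widest difference at -2.25.

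The 12 genes with the smallest p among those higher in the HFD line were Scamp5, Csnk2b, Tcf7l1, Ilk, Blcap, Gnl3, Higd2a, Aurkaip1, Syne4, Tst, Polr2i and Rogdi. None passed the test; all had an adjusted p of 0.437. Scamp5, a carrier protein of secretory membranes, had log2 signals of 7.96 to 8.55 (median 8.25) in the HFD line and 7.34 to 8.08 (median 7.61) in the chow line. Its difference was 0.58 ± 0.13, or 1.49-fold, and the groups overlapped only at the lowest HFD-line and the highest chow-line values. Csnk2b, the regulatory subunit of casein kinase 2, had 10.82 to 11.36 (median 11.14) against 10.43 to 10.93 (median 10.69), a difference of 0.47 ± 0.11 with slight overlap.

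Tcf7l1, a transcription factor of the Wnt pathway that mostly represses, was at 6.69 to 7.79 (median 7.18) in the HFD line and 6.09 to 6.96 (median 6.49) in the chow line, a difference of 0.67 ± 0.17. Ilk, the integrin-linked kinase that ties integrins to the actin skeleton, was at 9.95 to 10.29 (median 10.10) against 9.49 to 9.94 (median 9.74), a difference of 0.37 ± 0.09 with no overlap between the groups. The mitochondrial genes among the 12 were Higd2a, Aurkaip1 and Tst. Higd2a, an assembly factor of the respiratory chain, was at 9.80 to 10.22 (median 10.02) against 8.87 to 9.66 (median 9.54), and its second probe set differed by 0.53 (0.35 without arrays 21 and 25) where the first differed by 0.62; on both, every HFD-line array lay above every chow-line array. Tst, the sulfur transferase rhodanese of the mitochondrial matrix, was at 11.19 to 11.43 against 10.63 to 11.14, a difference of 0.38 ± 0.10 with no overlap. Aurkaip1, a protein of the small mitochondrial ribosomal subunit, was at 9.82 to 10.26 against 9.48 to 9.94, a difference of 0.39 ± 0.10, and here the groups overlapped.

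Syne4 had the widest difference of the 12. This gene encodes nesprin-4, which links the nuclear envelope to kinesin. Its log2 signal was 7.68 to 8.12 (median 7.80) in the HFD line and 5.36 to 7.76 (median 6.95) in the chow line, a difference of 1.21 ± 0.32 (2.32-fold). The HFD-line animals were uniform, with an SD of 0.17, and the chow-line animals spread over an SD of 0.90, so the variation lay mainly in the chow line. The remaining 4 were Blcap (0.50 ± 0.13), Gnl3, which encodes the nucleolar GTPase nucleostemin (0.39 ± 0.10), Polr2i, a subunit of RNA polymerase II (0.48 ± 0.13), and Rogdi (0.48 ± 0.13). Syne4 and Polr2i lie close to each other in the rat genome, with 4 protein-coding genes between them in the RefSeq order.

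The 12 genes with the smallest p among those lower in the HFD line were Ube2n, Ap1s2, Rnf135, Srsf12, Ap2b1, Arpc1b, Or3a1e, Xcr1, Fam120a, Dram1, Minar1 and Gata6. Their adjusted p-values were 0.354 for Ube2n and 0.437 for the other 11. Ube2n, the E2 enzyme that builds lysine-63-linked ubiquitin chains, was at 7.36 to 8.67 (median 8.12) in the HFD line and 8.57 to 9.19 (median 8.87) in the chow line. Its difference was -0.80 ± 0.16, a 1.74-fold lower level, and the highest HFD-line array lay above the 2 lowest chow-line arrays. Without array 41 of the HFD line it passed the threshold (-0.92, adjusted p = 0.0289), the only probe set to do so when any 1 array was left out.

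Among the lower genes were 3 of membrane traffic and the actin network. Ap1s2, a small subunit of the clathrin adaptor AP-1, was at 5.59 to 6.23 (median 6.02) in the HFD line and 6.34 to 6.94 (median 6.62) in the chow line. Its difference was -0.64 ± 0.14 with no overlap, but its lowest HFD-line value lay under 5.72, the mean limit for testing. Ap2b1, the beta subunit of the endocytic adaptor AP-2, was at 7.31 to 7.84 against 7.65 to 8.24, a difference of -0.48 ± 0.12. Arpc1b, a subunit of the actin-branching Arp2/3 complex, was at 9.79 to 10.08 against 9.97 to 10.53, a difference of -0.38 ± 0.10, and these last pairs of groups overlapped. Scamp5 of secretory membranes and Ilk of the actin skeleton went the other way, at 0.58 and 0.37. No list of trafficking genes was tested, so this grouping is a description of 3 genes.

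Rnf135, the ubiquitin ligase that activates the RNA sensor RIG-I, was at 5.34 to 6.24 (median 6.00) in the HFD line and 6.24 to 7.00 (median 6.45) in the chow line. Its difference was -0.61 ± 0.15, with the groups touching but not overlapping (6.241 against 6.243). The lowest HFD-line values of Rnf135 lay under 5.72, the mean limit for testing. Xcr1, a chemokine receptor of cross-presenting dendritic cells, differed by -0.31 ± 0.08 at a signal of 5.85 to 6.51, close to the limit for testing, as did the olfactory receptor gene Or3a1e (-0.30 ± 0.08). Fam120a, an RNA-binding protein, was at 9.65 to 9.96 (median 9.91) against 9.96 to 10.34 (median 10.21), a difference of -0.31 ± 0.08 with the groups touching but not overlapping. Fam120a was the 1 probe set called after quantile normalization (-0.33, adjusted p = 0.0117). Minar1 (-0.41 ± 0.11) also did not overlap between the lines, while Srsf12, a splicing factor (-0.36 ± 0.09), Dram1, a lysosomal protein of autophagy (-0.39 ± 0.10), and Gata6, a transcription factor of endoderm and mesoderm (-0.46 ± 0.13), did.

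All 24 of these genes kept their direction without arrays 21 and 25, with adjusted p-values between 0.686 and 0.795. So did 13063 of all 15687 probe sets, and the 24 were ranked on these same arrays, so this is no support for them. Of the 24, 7 did not overlap between the lines, against 0.325% of all probe sets; both counts rest on the same contrast that ranked the genes, so the share says nothing further about them.

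**Figure D2:**
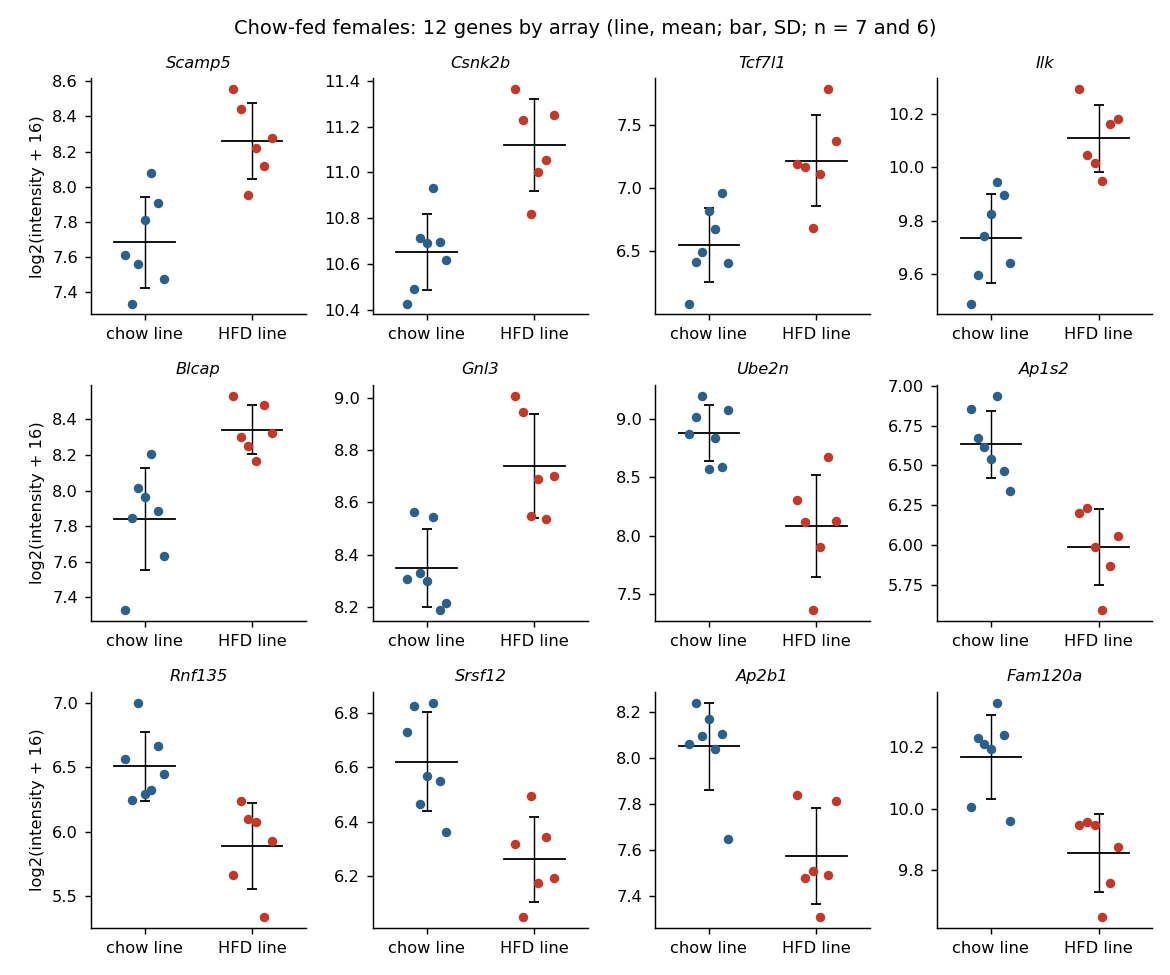
Log2 signal (y axis) of 12 chow-fed comparison genes in each array, chow line (blue, 7 arrays) and HFD line (red, 6 arrays); black lines are group means and bars are SDs, and each panel has its own axis. Top to bottom the panels run from the higher genes (Scamp5 first) to the lower ones (Fam120a last); Ilk, Ap1s2, Rnf135 and Fam120a show groups that do not overlap.

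The widest clear gaps between the lines, measured from the lowest array of the higher group to the highest array of the lower group, belonged partly to other genes. On the higher side these were Higd2a on both its probe sets, Zdhhc4, a palmitoyltransferase (0.35 ± 0.10), Slc66a2 (0.41 ± 0.13) and Myg1, a nuclease of nucleus and mitochondria (0.33 ± 0.09). Slc66a2 was at 7.26 to 7.54 in the HFD line and 6.77 to 7.16 in the chow line. On the lower side Cep20, a protein of centrosomes and cilia, was at 8.38 to 8.48 in the HFD line, a spread of 0.10, and 8.58 to 8.98 in the chow line (-0.30 ± 0.09). Chic1 (-0.47 ± 0.13), Ggt6, a gamma-glutamyltransferase family member (-0.24 ± 0.08), Zbp1, a sensor of Z-form nucleic acid (-0.34 ± 0.10), and Ap1s2 completed the lower side. Of these, Ggt6 had a signal of only 5.81 to 6.29, close to the limit for testing. Their adjusted p-values lay between 0.437 and 0.448.

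The largest differences were of another kind, genes with a low signal in some animals of a line and a high one in others; these genes were chosen after their values were seen. Nptx2, a neuronal pentraxin, was at 5.99 to 9.04 (median 6.78) in the HFD line and 6.97 to 10.70 (median 9.72) in the chow line, a difference of -2.25 ± 0.62 (4.77-fold, adjusted p = 0.437). In the chow line 6 of 7 arrays lay at 9.57 or above and only array 27 was at 6.97, and below the 2 highest HFD-line arrays, at 8.83 and 9.04. Mlc1, a membrane protein best known from astrocytes, was at 5.51 to 9.04 (median 8.79) against 5.16 to 9.04 (median 5.58), a difference of 1.80 ± 0.73. In the HFD line 5 of 6 animals had the high level, whereas in the chow line only arrays 29 and 30 did.

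Stac3, a muscle coupling protein whose transcript is also male-biased in rodent liver, was at 6.06 to 10.74 (median 9.21) in the HFD line and 9.94 to 11.32 (median 10.53) in the chow line (-1.78 ± 0.63), with arrays 40, 41 and 42 low. Fam111a, a protease that restricts viruses, was at 4.11 to 7.43 (median 5.68) against 5.51 to 8.52 (median 8.21), a difference of -1.69 ± 0.62. Cadps, a factor for dense-core vesicle release, was at 5.34 to 7.59 against 7.40 to 8.44 (-1.35 ± 0.39), with 1 HFD-line array inside the range of the chow line. Cyp3a23-3a1, a drug-metabolising cytochrome P450 induced through the pregnane X receptor, was at 10.06 to 11.52 (median 11.05) against 8.67 to 11.19 (median 9.84), a difference of 1.15 ± 0.32 (2.22-fold). Sult1c3, a sulfotransferase, differed by 1.48 ± 0.63, Ccn3, a matricellular growth factor, by -1.11 ± 0.45, and Ifit1, an interferon-induced RNA-binding protein, by 1.09 ± 0.62. Their adjusted p-values ran from 0.437 to 0.62, since the spread between animals was wide in these genes.

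Some of these differences belonged to 1 animal. Ugt2b, a glucuronosyltransferase, had a log2 signal of 4.38 in array 42 and 11.75 to 12.40 in the other 5 HFD-line arrays, against 11.68 to 12.44 in the chow line. Its difference of -1.25 ± 0.77 became 0.03 without array 42. Cfap95, a protein of cilia, was near 5 in 5 of 6 HFD-line arrays and at 9.60 in array 41, and in the chow line it was above 9.7 in 3 of 7 arrays (difference -1.57 ± 1.36). Probes of the UGT2B, CYP3A, AKR1C and other multigene families can also read close copies, so these genes' levels are uncertain as to which copy they measure.

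**Figure D3:**
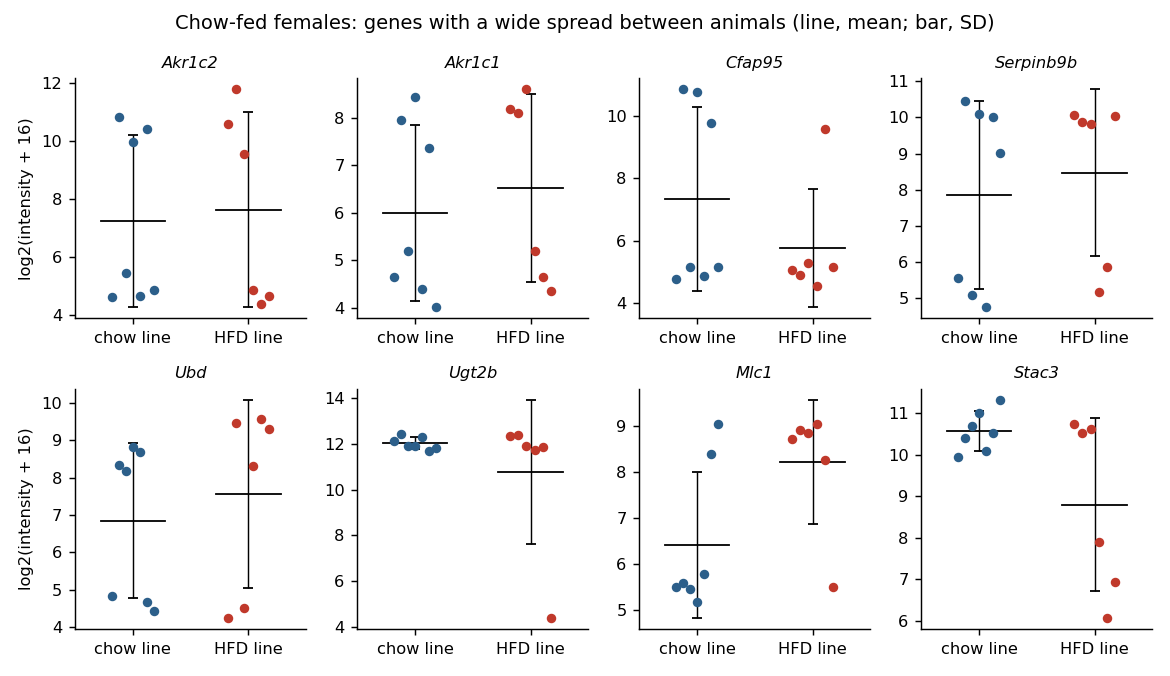
Log2 signal (y axis) of 8 genes with a wide spread between chow-fed animals, chow line (blue, 7 arrays) and HFD line (red, 6 arrays); black lines are means and bars are SDs. Akr1c2 and Akr1c1 are high in 3 animals of each line, Ugt2b is low in 1 HFD-line animal only, and Mlc1 is high in 5 HFD-line and 2 chow-line animals.

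The spread between animals of a line was small for most genes, with a median SD of 0.19 and a 95th percentile of 0.38, and very large for a few. Akr1c2, an aldo-keto reductase of steroid metabolism, had an SD of 3.14, with log2 signals of 4.40 to 11.77 in the HFD line and 4.63 to 10.83 in the chow line. Its neighbour Akr1c1 (SD 1.91) was high in the same animals, namely arrays 37, 38 and 39 of the HFD line and 25, 27 and 29 of the chow line, and no other protein-coding gene lies between the pair in the RefSeq order. Serpinb9b, a granzyme inhibitor (SD 2.47), was high in 4 of 6 HFD-line and 4 of 7 chow-line animals, and the ubiquitin-like modifier gene Ubd (SD 2.29) in the same numbers, 4 and 4. The lines differed in Akr1c2 by 0.38 ± 1.38, in Serpinb9b by 0.62 ± 1.20 and in Ubd by 0.72 ± 0.98, all within the spread between animals. Dusp15, a phosphatase, Pnpla3, a lipase of lipid droplets, Ces2e, a carboxylesterase, and A2ml1, a protease inhibitor, were among the 15 most variable genes as well, with line differences of 0.63, -0.69, -0.42 and -0.18.

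Gene lists for liver functions and cell types were read by how many of their tested genes were higher in the HFD line and by their median difference. Over all 12745 genes, 46% were higher as deposited and 52.7% after quantile normalization, and the median difference as deposited was -0.01; 3.3% were higher and 4.71% lower at an unadjusted p under 0.05. Without arrays 21 and 25 these shares were 42.1%, 1.3% and 3.55%. With the lower 50% of probe sets by mean left out, the median difference was 0.02, so bright probe sets leaned higher than this background. No member of any list passed the adjusted threshold.

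**Figure D4:**
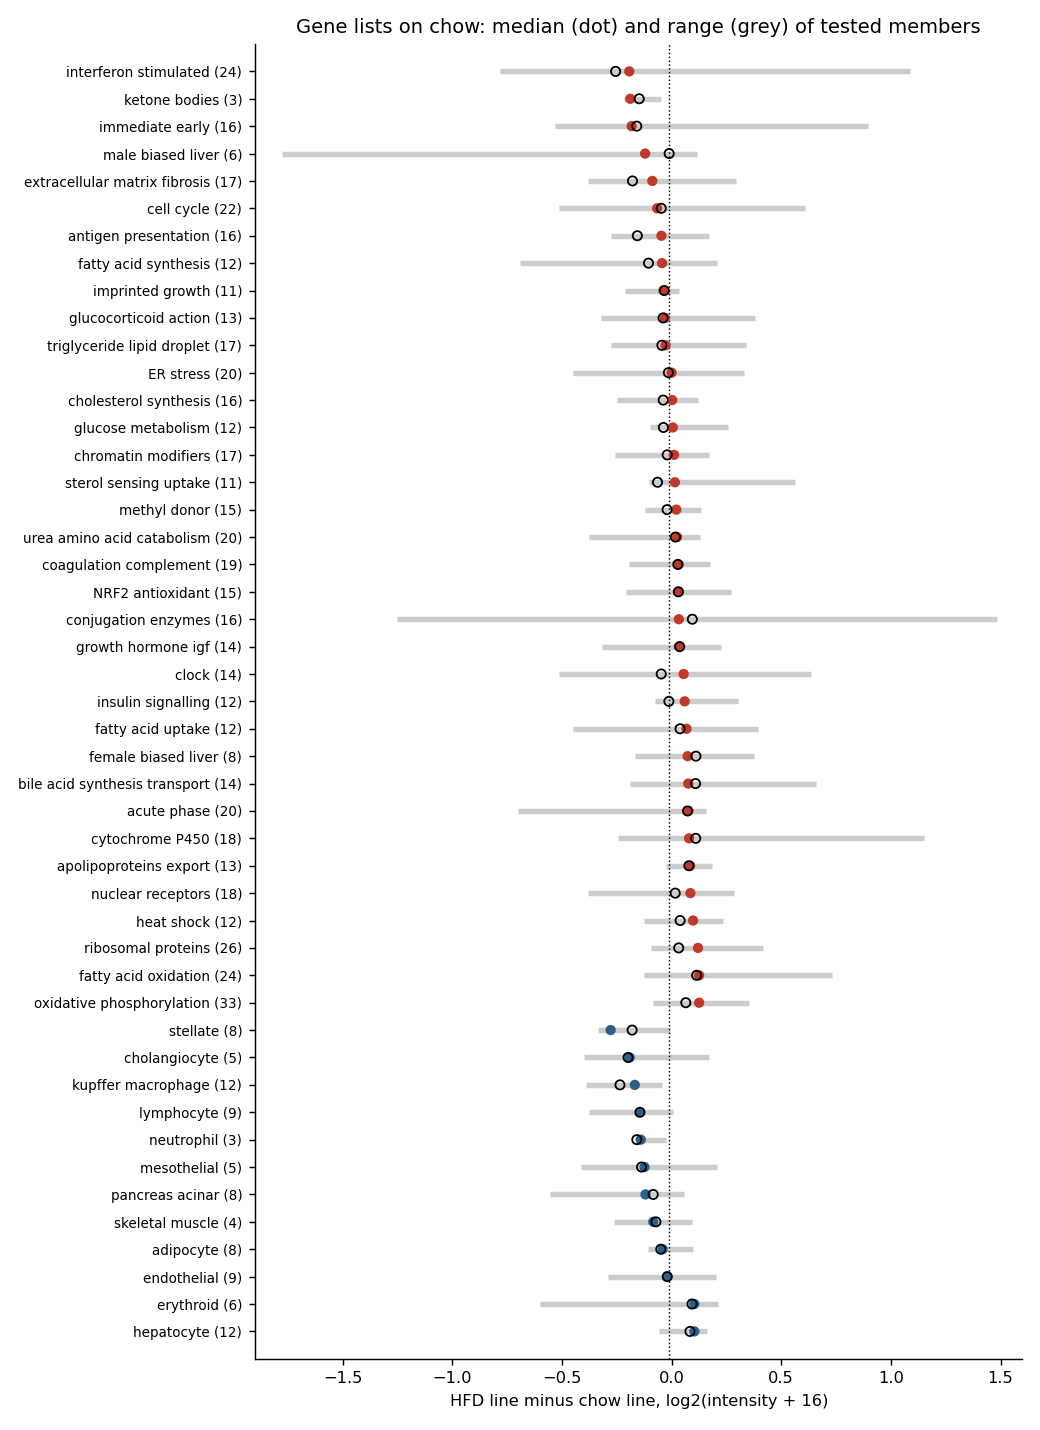
Difference between the lines in chow-fed females (x axis, log2) for 47 gene lists, with the number of tested genes after each name; filled dots are list medians (red for process lists, blue for cell type lists), grey bars run from the lowest to the highest member, open circles are medians without arrays 21 and 25, and the dotted line is the median of all genes at -0.01. The list medians lie between -0.28 (stellate) and 0.13 (fatty acid oxidation and oxidative phosphorylation).

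Genes of fatty acid oxidation were mostly higher in the HFD line. Of 24 tested, 21 were higher, with a median of 0.13 (0.11 without arrays 21 and 25). At an unadjusted p under 0.05, 6 were higher (4 without these arrays) and none lower. After quantile normalization 18 of 24 were higher (median 0.09). The mean log2 signal of the list, relative to its mean over all arrays, overlapped between the lines. It was -0.23 to 0.56 in the HFD line and -0.43 to 0.38 in the chow line. The 0.56 belonged to array 37, with the next HFD-line array at 0.16, and the 0.38 belonged to array 28. These arrays were also the highest of their lines on the first principal component, which followed brightness, at 21.35 and 25.16. Array 37 had the highest value for each of Decr1, Eci1 and Vnn1 as well. Decr1, a mitochondrial reductase for unsaturated fatty acids, was at 9.44 to 10.55 (median 9.92) in the HFD line and 9.25 to 9.88 (median 9.42) in the chow line, a difference of 0.48 ± 0.16. Eci1, the isomerase for the same substrates, differed by 0.63 ± 0.22, with 10.76 to 12.03 against 10.13 to 11.29. Vnn1, a pantetheinase and PPAR alpha target, differed by 0.73 ± 0.29, and its levels of 7.58 to 9.08 and 6.85 to 8.84 overlapped over most of their range. The other 3 of the 6 were Acadl, the long-chain acyl-CoA dehydrogenase (0.23 ± 0.09), Cpt1a, the gatekeeper of mitochondrial fatty acid entry (0.59 ± 0.25, and 0.37 without arrays 21 and 25), and Slc25a20, the acylcarnitine carrier (0.28 ± 0.13).

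Oxidative phosphorylation and ribosomal protein genes leaned the same way, and less so without arrays 21 and 25. Of 33 respiratory chain genes, 30 were higher (median 0.13), and 10 had an unadjusted p under 0.05; without these arrays 26 were higher, the median was 0.06 and 1 had such a p. Cox4i1, a subunit of complex IV, was at 11.49 to 11.80 in the HFD line and 10.81 to 11.58 in the chow line (0.33 ± 0.12, and 0.22 without these arrays), Cox5a of the same complex differed by 0.28 ± 0.11, and Cox7a2 by 0.29 ± 0.12. Of 26 cytosolic ribosomal protein genes, 25 were higher (median 0.12) and 6 had such a p, among them Rpl32 (0.29 ± 0.10), Rps9 (0.42 ± 0.14) and Rps3 (0.34 ± 0.14). Without arrays 21 and 25 Rps9 differed by 0.28 and Rps3 by 0.17, and the count was 19 of 26, the median 0.03, and none had such a p. After quantile normalization of all arrays, 26 of 33 respiratory chain genes (median 0.10) and 20 of 26 ribosomal protein genes (median 0.10) were higher.

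Cholesterol synthesis genes had a median difference near 0. Of 16 tested genes 9 were higher and 7 lower as deposited, 4 were higher after quantile normalization, 12 after centring and 6 without arrays 21 and 25. The medians were 0.00, -0.03, 0.04 and -0.04 in that order, and no member had an unadjusted p under 0.05 (limma) as deposited or without arrays 21 and 25. The 95% intervals bounded 12 of the 16 within a 1.5-fold change and all 16 within 2-fold, the outer bounds being -0.85 for Idi1, the isopentenyl diphosphate isomerase, and 0.75 for Sqle, the squalene epoxidase. Lss, the lanosterol synthase, differed by -0.22 ± 0.17, Dhcr7, which makes the last step, by 0.12 ± 0.11 (0.01 without arrays 21 and 25), and Hsd17b7 by -0.18 ± 0.21. Of 11 genes of sterol sensing and uptake 6 were higher (median 0.02), but 4 were higher without arrays 21 and 25 (median -0.06) and 4 after quantile normalization (median -0.01). The sterol exporter gene Abcg5 had the widest difference, 0.56 ± 0.32, with HFD-line values of 5.39 to 8.64 enclosing the chow line's 5.97 to 6.88.

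Among the other lipid genes, 3 of 12 fatty acid synthesis genes were higher (median -0.04, and -0.11 without arrays 21 and 25), including Fads2, the delta-6 desaturase (0.21 ± 0.10, and 0.13 without these arrays). Elovl6, which elongates palmitate, differed by -0.54 ± 0.31 at 9.42 to 11.50 against 10.18 to 11.73. Of 17 triglyceride and lipid droplet genes 7 were higher (median -0.03, and -0.04 without arrays 21 and 25), with the droplet protein genes Plin5 (0.34 ± 0.15) and Cideb (0.21 ± 0.10) at an unadjusted p under 0.05. Of 12 fatty acid uptake genes 7 were higher (median 0.07, and 0.04 without arrays 21 and 25), 3 with such a p (1 without these arrays), and Lpl, the lipoprotein lipase, was lower with such a p (-0.45 ± 0.21), which it no longer had without these arrays (-0.35). All 3 tested ketone body genes were lower (median -0.19), and 12 of 13 apolipoprotein and lipoprotein export genes were higher (median 0.08, and 0.01 after quantile normalization).

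Bile acid genes included Slc27a5, the bile acyl-CoA synthetase, at 11.56 to 12.10 (median 12.01) in the HFD line and 11.25 to 11.69 (median 11.57) in the chow line, a difference of 0.39 ± 0.11, with an unadjusted p under 0.05. The groups overlapped in the lowest HFD-line array. Nr0b2, the repressor SHP that answers to bile acids, differed by 0.66 ± 0.25, Cyp27a1, a sterol hydroxylase, by 0.26 ± 0.12 and the exporter gene Abcc3 by 0.31 ± 0.15. Without arrays 21 and 25 Nr0b2 differed by 0.36 and Cyp27a1 by 0.14, neither with an unadjusted p under 0.05. Of 14 tested members, 10 were higher, with a median of 0.08 (0.11 without arrays 21 and 25). Of 18 cytochrome P450 genes 14 were higher (median 0.08, and 0.01 after quantile normalization), led by Cyp3a23-3a1 described above and by Cyp2j4 (0.71 ± 0.23). Conjugation enzymes had 12 of 16 higher with a median of 0.03 as deposited, 0.09 without arrays 21 and 25 and -0.01 after quantile normalization. Sult2a1, the bile acid and steroid sulfotransferase, differed by 0.38 ± 0.16.

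Sugar, insulin and hormone genes differed little. Glucose metabolism had 6 of 12 genes higher (median 0.01, and -0.04 without arrays 21 and 25), with Slc37a4, the glucose 6-phosphate transporter, at 0.26 ± 0.09 (0.16 without these arrays). Insulin signalling had 10 of 12 higher (median 0.06, and -0.01 without arrays 21 and 25), none with an unadjusted p under 0.05. The growth hormone and IGF list had 8 of 14 higher (median 0.03, and -0.02 after quantile normalization), and Igfbp3, the main IGF carrier of plasma, differed by -0.32 ± 0.14. The nuclear receptors had 13 of 18 higher (median 0.09, and 0.02 without arrays 21 and 25), the NRF2 antioxidant genes 13 of 15 (0.03) and the glucocorticoid list 4 of 13 (-0.03), where Mt1, a metallothionein, differed by 0.38 ± 0.12. Clock genes spread widely from animal to animal, with 8 of 14 higher (median 0.05, and -0.05 without arrays 21 and 25); Per3 differed by 0.60 ± 0.47 (0.36 without these arrays) and Npas2 by -0.51 ± 0.31.

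Interferon-stimulated genes were mostly lower in the HFD line. Of 24 tested, 4 were higher, with a median of -0.19 (-0.26 without arrays 21 and 25), and 5 were lower at an unadjusted p under 0.05 (6 without these arrays). The mean log2 signal of the list, relative to its mean over all arrays, overlapped between the lines. It was -0.13 to 0.23 (median -0.02) in the HFD line. In the chow line it was -0.30 to 0.45 (median 0.19), a range that enclosed the other. The -0.30 was array 21, and the next chow-line array was at 0.03. Gbp2, a guanylate-binding protein, was at 7.21 to 7.68 (median 7.33) in the HFD line and 7.60 to 8.32 (median 7.68) in the chow line, a difference of -0.45 ± 0.14. Oasl2 of the oligoadenylate synthetase family was at 6.28 to 6.72 against 6.60 to 7.61, a difference of -0.54 ± 0.18. Oas1a (-0.78 ± 0.36), Oasl (-0.48 ± 0.23) and Gbp5 (-0.31 ± 0.13) were the others, and in each the groups overlapped. Not all members were lower: Ifit1, the interferon-induced gene given above, was higher by 1.09. Antigen presentation genes had 6 of 16 higher (median -0.05), and 2 of 16 without arrays 21 and 25 (median -0.16). Acute phase genes had 17 of 20 higher (median 0.08, and 0.00 after quantile normalization) and coagulation and complement genes 12 of 19 (median 0.03, and -0.04 after quantile normalization). Lcn2, the iron-binding acute phase protein lipocalin 2, was at 7.08 to 8.07 against 7.43 to 9.04, a difference of -0.67 ± 0.27.

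Immediate early genes had 6 of 16 higher (median -0.18). Ier3 (-0.41 ± 0.17) and Ier2 (-0.38 ± 0.16), early response genes, were lower at an unadjusted p under 0.05, and Gadd45b, a stress-response gene, was higher at 8.80 to 10.43 (median 9.68) against 7.25 to 9.64 (median 8.70), a difference of 0.89 ± 0.29 (0.53 without arrays 21 and 25). Heat shock genes had 10 of 12 higher (median 0.10, and 0.04 without arrays 21 and 25) with none at such a p, and endoplasmic reticulum stress genes 10 of 20 (median 0.00, and -0.01 without these arrays), with Herpud1 at 0.33 ± 0.16 (0.17 without these arrays) and Chac1 at -0.45 ± 0.21. Of 22 cell cycle genes 8 were higher (median -0.07), with Ccnd1, cyclin D1, at 0.61 ± 0.19.

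Genes often asked about in work on inherited diet effects differed little. Of 17 chromatin-modifying enzyme genes 10 were higher (median 0.01, and -0.02 without arrays 21 and 25), and all 17 intervals lay within a 1.5-fold change. Ezh2, the histone H3 lysine-27 methyltransferase, was at 7.21 to 7.68 in the HFD line and 7.35 to 7.84 in the chow line, a difference of -0.26 ± 0.12. All 15 methyl donor genes were likewise bounded within 1.5-fold (8 higher, median 0.02, and -0.02 without arrays 21 and 25). Of 11 imprinted growth genes 3 were higher (median -0.04, and 0.02 after quantile normalization), and all 11 intervals lay within 1.5-fold. Another 3 on the array were too dim to be tested. Phlda2, a growth-restraining gene expressed from the maternal allele, differed by -0.21 ± 0.10. Igf2 differed by -0.17 ± 0.09 at a signal of 5.36 to 6.03, close to the limit for testing. The offset understates differences at such levels, so a narrow interval there does not bound a change. Urea cycle and amino acid genes had 11 of 20 higher (median 0.03, and -0.06 after quantile normalization). Of the genes that differ between the sexes in rat liver, 7 of 8 female-biased ones were higher (median 0.07, 0.11 without arrays 21 and 25 and 0.00 after quantile normalization) and 2 of 6 male-biased ones (median -0.12, and -0.01 without arrays 21 and 25), Stac3 being the widest.

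Markers of macrophages, stellate cells and lymphocytes were mostly lower in the HFD line. In a piece of tissue, fewer cells of a type and less RNA per cell cannot be told apart. All 12 tested Kupffer cell and macrophage genes were lower, with a median of -0.17 (-0.24 without arrays 21 and 25), and the summed intensity of the list was 5968 to 10017 in the HFD line and 6965 to 11482 in the chow line. C1qb, a chain of complement C1q made by macrophages, was at 9.24 to 10.14 against 9.75 to 10.52, a difference of -0.39 ± 0.16, and was the only one of the 12 with an unadjusted p under 0.05. Marco, a scavenger receptor, differed by -0.35 ± 0.22 and Vsig4, a complement receptor of Kupffer cells, by -0.26 ± 0.19.

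All 8 stellate cell genes were lower as well (median -0.28, and -0.18 without arrays 21 and 25, where 1 was higher), with summed intensities of 2990 to 3626 in the HFD line and 2700 to 5287 in the chow line, whose range enclosed the other. Vim, vimentin, differed by -0.33 ± 0.15 and Lrat, which stores retinol as ester, by -0.30 ± 0.21 (-0.10 without arrays 21 and 25). Of 17 matrix and fibrosis genes 3 were higher (median -0.09, and -0.18 without arrays 21 and 25), and Col1a2, a chain of type I collagen, was at 7.84 to 8.36 against 8.27 to 8.74, a difference of -0.38 ± 0.13. Lymphocyte genes had 1 of 9 higher (median -0.14), with Cd4 at -0.38 ± 0.16, and endothelial genes 3 of 9 (median -0.02). Hepatocyte genes had 11 of 12 higher with a median of 0.10, and 0.00 after quantile normalization, where 6 of 12 were higher. The macrophage, stellate and lymphocyte medians kept their sign under both scalings, at -0.18, -0.26 and -0.09 after quantile normalization. These markers were lower in the same group as the interferon and matrix genes above, and the part of cell composition in those differences was not tested.

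The other cell type lists were small or dim. Neutrophil genes had 0 of 3 higher (median -0.14), bile duct genes 2 of 5 (-0.19), adipocyte genes 3 of 8 (-0.04, and 0.01 after quantile normalization), pancreatic acinar genes 2 of 8 (-0.12), erythroid genes 4 of 6 (0.10), skeletal muscle genes 1 of 4 (-0.08) and mesothelial genes 1 of 5 (-0.12). Within them Slc4a1, the anion exchanger of red cells, differed by -0.60 ± 0.23 and Acta1, skeletal actin, by -0.26 ± 0.11. The summed acinar intensity was 2795 to 5454 in the HFD line and 2395 to 8410 in the chow line, and the adipocyte sum 1824 to 2322 against 1440 to 2292.

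The same line comparison in the HFD-fed females used other animals, 5 of the HFD line and 6 of the chow line, and again called no probe set (0 of 15687, 0%, with 1722 or 11% at an unadjusted p under 0.05, limma). The median difference there was -0.10, and 18.3% of genes were higher, or 43.2% after centring each array on its median. Over all probe sets the line differences on the 2 own diets correlated at -0.02, across genes, which are not independent replicates. Of the 24 genes named above, 16 had the same sign on both own diets (18 after centring), where 7855 of 15687 probe sets did (7717 after centring). In HFD-fed females, Minar1 and Fam120a had the same direction at an unadjusted p under 0.05. Minar1 was at -0.41 ± 0.12 where chow-fed females had -0.41 ± 0.11, and Fam120a was at -0.21 ± 0.09 where chow-fed females had -0.31 ± 0.08. These are 2 of 24 genes (8.33%), or 2 of the 12 lower ones (16.7%), and after centring 1 was left. Over all probe sets 5.92% had such a p in the same direction, and 10.9% of those that were lower on chow, so the share is near the background. Among the largest differences, picked after their values were seen, Fam111a was lower on both, at -1.69 ± 0.62 on chow and -1.56 ± 0.67 on the HFD. Ifit1 was higher on both, at 1.09 ± 0.62 and 1.35 ± 0.68, with no unadjusted p under 0.05 on either. Stac3 (-1.78 on chow and 0.06 on the HFD) and Cyp3a23-3a1 (1.15 and -0.26) turned sign. The others of that set kept theirs, some near 0 on the HFD, such as Nptx2 (-2.25 and -0.16). No test of the set was made.

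The test of whether the line difference changed with own diet called no probe set either (0 of 15687, 0%, smallest adjusted p 0.131 in limma), with 1523 probe sets at an unadjusted p under 0.05 (9.71%). Of the 24 genes, 15 had such a p, 10 of the 12 higher and 5 of the 12 lower ones, but the genes were ranked on 1 side of that contrast, so this count is no support. Rnf135 had the smallest, with -0.61 ± 0.15 on chow and 0.25 ± 0.16 on the HFD (adjusted p = 0.174 for the change). Ilk had 0.37 ± 0.09 and -0.16 ± 0.10 (adjusted p = 0.196), and Scamp5 0.58 ± 0.13 and -0.01 ± 0.14 (adjusted p = 0.308).

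Among the lists, 14 of 24 fatty acid oxidation genes had an unadjusted p under 0.05 for the change, as did 14 of 33 respiratory chain genes and 15 of 26 ribosomal protein genes, against 9.71% of all probe sets. These lists had the highest medians on chow, which is 1 side of that contrast, so the counts are a description only. Without arrays 21, 22, 24 and 25 the counts were 5, 10 and 10, against 7.06% of all probe sets, and the chow medians of the respiratory chain and ribosomal lists were 0.06 and 0.03. As fitted on all arrays, the medians of the 3 lists on the HFD were -0.14, -0.08 and -0.09 after centring, against 0.17, 0.17 and 0.16 on chow after the same centring. Vnn1 was higher by 0.73 on chow and lower by 0.82 on the HFD, and Decr1 higher by 0.48 and lower by 0.28. The interferon list was lower on both own diets (median -0.15 on chow and -0.32 on the HFD after centring), with Oasl2 at -0.54 and -0.52 and Oas1a at -0.78 and -0.90 as deposited. The macrophage and lymphocyte lists had medians of -0.13 and -0.10 on chow and of 0.09 and 0.13 on the HFD after centring, and no member of either had an unadjusted p under 0.05 for the change.

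**Figure D5:**
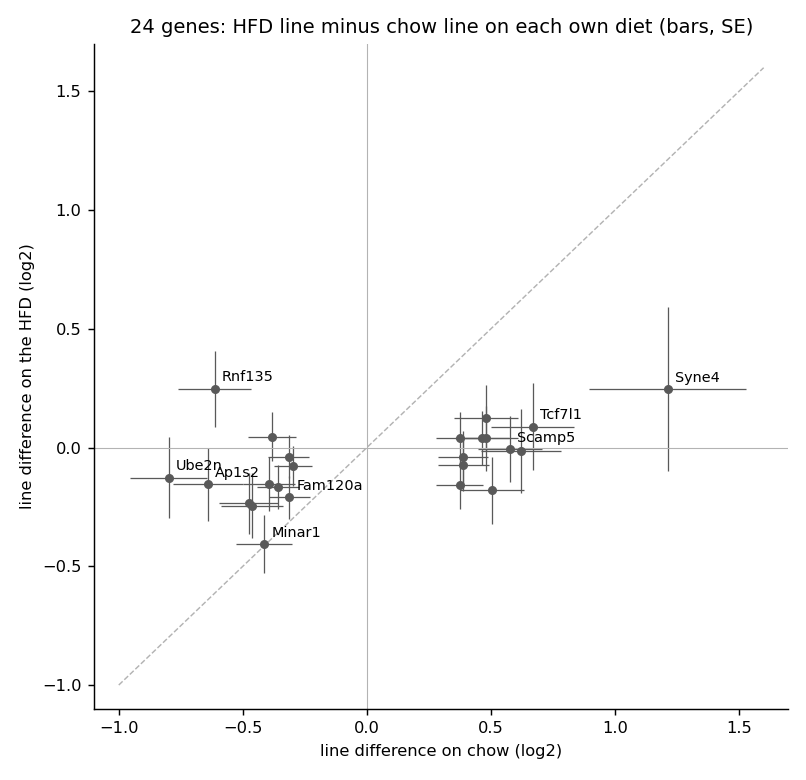
Difference between the lines (log2 signal, HFD line minus chow line) in chow-fed females (x axis) and HFD-fed females (y axis) for the 24 genes with the smallest p on chow; bars are standard errors and the dashed line marks equal differences. Most points lie near 0 on the y axis; Minar1 lies on the line of equal differences at -0.41 and Rnf135 has opposite signs.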

How the data were processed

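The deposited table holds a linear intensity for every probe set of every array. The submitters' processing notes name PLIER and Affymetrix Expression Console; their versions and settings are not stated in the labels. Per the labels' protocols, 200 ng of total RNA was turned into sense-strand cDNA and labelled with biotin. These values were used as log2(value + 16) without normalizing them again; the offset understates differences of dim probe sets. Probe sets in the lowest 25% by mean (5230 of 20917) were not tested. The rest were fitted in limma 3.58.1 (R 4.3.3) with 4 group means over 24 arrays, so that all groups share 1 estimate of the spread (20 residual degrees of freedom), and eBayes with an intensity trend. All limma p-values are two-sided, and adjusted p-values are Benjamini-Hochberg values over 15687 probe sets with a threshold of 0.05. The fit was tested on simulated data.

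Gene symbols came from the platform annotation, updated with RefSeq (assembly GRCr8, used for names and gene order only): 18197 probe sets had 1 gene, 960 several and 1760 none. Each gene in a list was read on its brightest probe set. Genes were named, among probe sets with 1 gene symbol that is not a provisional LOC or RGD name, as the 12 smallest p per direction, the 5 widest gaps per direction between groups that did not overlap, and up to 3 members per list by smallest p; other list members at an unadjusted p under 0.05, the 12 largest differences and the 15 most variable genes were added after their values were seen. The comparison and the 47 lists were chosen with earlier results of these data known.

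The alternatives were quantile normalization, centring on array medians, no filter or the lower 50% left out, offsets of 1 and 50, eBayes without trend or robust, array weights, 1 probe set per gene, chow-fed arrays only, and each array left out in turn. Leaving out arrays 21 and 25, or 21, 22, 24 and 25, and using these 4 as a block, alone or with quantile normalization, was chosen after seeing the data. Arrays 22 (chow line) and 24 (HFD line) came from HFD-fed females.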

Additional observations from a re-analysis of the deposited data

Results flagged for a closer look

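In 18 of 356 groups of arrays looked at for the named genes, 1 array lay far from the rest of its group (Dixon's criterion), which chance gives in about 1 of 20 groups, close to what was found. All values are log2 signals in chow-fed females. In the chow line, array 21 was low for Zdhhc4 (9.18, next 9.57), Slc37a4 (10.69, next 11.08) and the clotting factor gene F11 (10.39, next 10.71), and high for the cytochrome P450 gene Cyp2c13 (11.32, next 10.66). Array 27 was low for Nptx2 (6.97, next 9.57), array 29 for the histone methyltransferase gene Suv39h1 (7.52, next 7.66) and array 30 for Ap2b1 (7.65, next 8.04), while array 30 was high for Acta1 (7.05, next 6.71).

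In the HFD line, array 42 was low for Ugt2b (4.38, next 11.75), Mlc1 (5.51, next 8.27) and Aacs, which activates acetoacetate (7.90, next 8.44). Array 37 was high for Ccn3 (7.74, next 6.62) and Bdh1, a ketone body enzyme (11.65, next 11.24), array 38 for Mat1a, which makes S-adenosylmethionine (12.84, next 12.59), and array 41 for Cfap95 (9.60, next 5.29). Array 39 was low for Sult2a1 (11.22, next 11.77), and array 40 for Rpl32 (11.72, next 11.88) and Slc4a1 (6.39, next 7.25).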

How the results depend on the processing

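No probe set was called on chow under the alternatives other than quantile normalization (1 called, Fam120a), quantile normalization with the 4-array block (3 called: Fam120a at -0.31, Arpc1b at -0.41 and Dcaf6, chosen after its value was seen, at 0.31) and leave-one-out fits (0 to 1, Ube2n without array 41). The change of the line difference with own diet had 0 to 57 calls in leave-one-out fits; the 57 came without array 28, and 41 of them were probe sets of the ribosomal protein gene Rpl21, which reads many near-identical copies. The cause was not tested. The line difference on the HFD had 0 calls in every leave-one-out fit. The array median difference was -0.07 to -0.02 in leave-one-out comparisons (exact permutation p 0.206 to 0.721). Signs turned for these named genes, which apart from Ugt2b (-1.25) had differences of 0.17 or less in size: without arrays 21 and 25, and without all 4 arrays, Hdac5 (-0.0030) and Elane (0.0054); with the 4-array block, Hdac5 (-0.0020); after quantile normalization, Ciita (0.0068), Elane (0.0340) and Retn (0.0079); with the block added, Itih3 (-0.0126), Apoh (-0.0105), Hpd (-0.0111), Zim1 (0.0128), Ttr (-0.0149), Elane (0.0252), Lep (0.0115) and Retn (0.0502); after centring, Elane (0.0139); and when 1 array was left out, Ugt2b (-1.58 to 0.0267, the latter without array 42), Bdh1 (-0.13 to 0.0095, the latter without 28) and Elane (-0.052 to 0.0313, the latter without 38). No paired analysis was possible because no array number occurs in more than 1 group. Probe sets close to background have compressed differences, so larger changes there may be understated.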

Other observations

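The genes with the smallest p in the chow-fed comparison were looked up for neighbours among the 50 named genes found in the RefSeq order. Besides Syne4 with Polr2i and Akr1c2 with Akr1c1, Arpc1b had Nptx2 with 6 protein-coding genes between and Cyp3a23-3a1 with 9. Arpc1b and Nptx2 were lower in the HFD line and Cyp3a23-3a1 was higher. These are positions only, and no test of clustering was made.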
